A study of Mus musculus with 19 samples.

Results

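The genes that fold, sort and destroy proteins in the endoplasmic reticulum (ER), with the sensors of the unfolded protein response, were followed in mouse fibroblasts. The cells left quiescence under FGF with or without a MEK inhibitor. The group held 37 genes, listed by symbol for their known function, of 14996 genes tested on the array. All 37 had a probe set and all 37 passed the filter on low signals (above the 40th percentile of the array, 45.2 over all values, on at least 2 arrays). They were represented on the array by 89 probe sets, of which 87 passed. The list comprised 6 sensors and regulators, 12 chaperones and cochaperones, 6 disulfide and prolyl isomerases, 8 genes of ER-associated degradation and 5 genes of the translocon and of export vesicles.

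NIH3T3, an established mouse fibroblast line, was starved for 48 h in medium with 0.1% serum, and the quiescent state was read on 3 arrays (experiment 1 gave replicates 1a and 1b, which were averaged to 1 sample, and experiment 2 gave replicate 2). Starved cells received bFGF at 50 ng/ml for 1, 4, 7 or 12 h, alone or with 20 µM U0126, which blocks the ERK kinase MEK, from 0.5 h before FGF; the groups at 4, 7 and 12 h had 2 arrays each, 1 per experiment, and both groups at 1 h had 1. In 2 further groups of 1 array, U0126 was given 1 h after FGF and the cells were read at 7 h, or it was given 7 h after FGF and they were read at 12 h. The labels name no vehicle for arrays without U0126, no time-matched cells without FGF and no separate cultures for the replicates. Time in culture and FGF therefore cannot be told apart, and p-values measure only the spread between these samples, which may be technical.

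The unfolded protein response is the program by which a cell matches its ER folding capacity to its load of secretory and membrane proteins. Its sensors sit in the ER membrane: ATF6 is cleaved in the Golgi to release a transcription factor, IRE1 (gene Ern1) splices the Xbp1 mRNA so that it encodes an active factor, and PERK (gene Eif2ak3) phosphorylates the initiation factor eIF2 alpha, which lowers translation in general and raises that of ATF4. The released factors act on genes of chaperones such as BiP (Hspa5), of foldases and of ER-associated degradation (ERAD), which hands misfolded proteins to the proteasome in the cytosol. Fibroblasts are secretory cells that make collagen and other matrix proteins in this compartment. Arrays of this kind measure the amount of a transcript, not splicing of Xbp1, cleavage of ATF6 or phosphorylation.

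ATF6 and XBP1 are known to act through the ER stress response element, so the promoters of the listed genes are shown by this motif. RefSeq windows of 300 bases (250 before and 50 after the start, assembly GRCm38.p6) were matched by symbol for 32 of the 37 genes; Atf6, Hyou1, Manf, Derl1 and Sec61a1 had no entry in the table. The element ERSE was searched as CCAAT, 9 bases of any kind and CCACG, and ERSE-II as ATTGG, 1 base of any kind and CCACG, on both strands. Both motifs hold the core CCACG. Only exact matches were counted, so variants with other letters are neither listed nor marked. The matches follow 5′ to 3′ along the strand that carries the motif, with the fixed bases in capitals and the spacer in lower case.
Hspa5: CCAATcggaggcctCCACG
Hsp90b1: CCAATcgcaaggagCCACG
Hsp90b1: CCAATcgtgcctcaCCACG
Calr: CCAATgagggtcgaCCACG
Canx: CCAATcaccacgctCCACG
Dnajc3: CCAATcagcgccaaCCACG
Creld2: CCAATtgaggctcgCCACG
Pdia6: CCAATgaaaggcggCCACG
Syvn1: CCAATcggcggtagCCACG
Derl3: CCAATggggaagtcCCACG
Herpud1: ATTGGgCCACG
Dnajb11: ATTGGcCCACG
The first 10 lines are ERSE and the last 2 are ERSE-II. In Hspa5 the match lay 65 to 47 bases before the start (chr2:34772025-34772043, plus strand), and in Herpud1 it lay 52 to 42 bases before it (chr8:94386377-94386387, plus strand). In Dnajb11 it began 8 bases after the start, inside the transcript (chr16:22857852-22857862, plus strand).

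The 150 bases before the Hspa5 and Herpud1 starts are printed for context, since these are the central chaperone and the listed gene with the largest U0126 difference; the motif stands in capitals (chr2:34771940-34772089 and chr8:94386279-94386428, both plus strand).
Hspa5: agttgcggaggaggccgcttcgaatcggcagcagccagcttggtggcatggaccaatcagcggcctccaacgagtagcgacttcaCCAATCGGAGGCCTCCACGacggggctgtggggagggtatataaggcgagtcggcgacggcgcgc
Herpud1: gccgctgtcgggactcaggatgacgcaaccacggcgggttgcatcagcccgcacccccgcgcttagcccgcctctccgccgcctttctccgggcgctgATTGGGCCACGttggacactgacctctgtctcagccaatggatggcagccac
An ERSE was found for 9 of 32 listed genes with a window (28.1%), against 37 of 27025 genes in the table (0.137%), and an ERSE-II for 2 of 32 (6.25%) against 12 of 27025 (0.0444%). The core CCACG alone was found for 25 of 32 (78.1%) and for 35.5% of all genes. These genes were listed for their known function in the ER and in this response, so their share is a description. Of the 11 listed genes with either element 7 were higher with U0126 in the average over 4, 7 and 12 h, with a median log2 difference of 0.32. Of the 21 without it 12 were higher, with a median of 0.32, where 11.7% of all tested genes were called higher. This comparison is described further on. Canx, Pdia6, Syvn1 and Derl3, the last near background, carry an element and were not called. Sdf2l1, Pdia4, Sel1l, Dnajb9 and Edem1 were called higher without an exact match. The part of the element in the difference was not tested.

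Whole arrays were even: the trimmed mean signal was 500 on each array and the median lay between 60.2 and 88.3. The fibroblast markers were present, with 7 of 7 above 45.2 at their median and a summed signal of 99169 to 166330, while the summed signals of 5 macrophage, 5 epithelial, 5 endothelial, 5 muscle and 4 adipocyte markers lay between 947 and 1559, 318 and 825, 96.8 and 293, 140 and 418, and 22.7 and 115. At their median, 4 macrophage markers (Adgre1, Csf1r, Cd68 and Cd14), 3 epithelial (Epcam, Cdh1 and Krt8), 3 muscle (Des, Acta1 and Tnnt3) and 1 endothelial (Kdr) were above 45.2, and the rest were below it, with Ptprc, Pecam1, Myod1, Myog and Adipoq among them. In bulk RNA, fewer cells of a type and less RNA per cell cannot be told apart. Of 5 genes that report on FGF and ERK, 4 fell with U0126: averaged over 4, 7 and 12 h, Egr1 fell by 4.06 ± 0.17 and Dusp6 fell by 2.42 ± 0.09 on the log2 scale (limma, adjusted p = 5.9e-10 and 4e-10), Fosl1 and Ccnd1 fell as well (-1.47 ± 0.13 and -1.89 ± 0.09), and Spry2 did not pass (-0.22 ± 0.16, adjusted p = 0.42). At 12 h of FGF against quiescent cells, Fosl1, Dusp6 and Ccnd1 were higher (3.23 ± 0.23, 2.37 ± 0.16 and 1.33 ± 0.16). Egr1 was lower, at -2.19 ± 0.29, and Spry2 did not pass (0.08 ± 0.28). Of the 7 fibroblast markers 1 rose (Thy1) and 1 fell (Pdgfrb) with U0126, and 3 (Col1a1, Pdgfrb and Thy1) fell at 12 h of FGF. Of the 18 tested markers of other cell types Cd14 was called in both comparisons, at -0.35 ± 0.08, adjusted p = 0.0077 with U0126 and 0.77 ± 0.15, adjusted p = 0.0015 at 12 h of FGF, and the other 17 in neither. The part of these markers in the results on ER genes was not tested.

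The main comparison asks how these transcripts differ between FGF with and without U0126. With U0126 present from the start, 23 of the 37 genes (62.2%) were higher than with FGF alone in the average over 4, 7 and 12 h, and 0 were lower, where 11.7% of all tested genes were called higher and 10.3% lower (limma, Benjamini-Hochberg adjusted p under 0.05 over 14996 genes). The median log2 difference was 0.32 over the 37 genes and 0.01 over all genes tested. Calls fell on 11 of 12 chaperones, 6 of 8 ERAD genes, 4 of 6 sensors and regulators and 2 of 6 isomerases, and on 0 of 5 translocon and export genes. Over all 37 genes, called or not, U0126 gave the higher signal in all 6 pairs of arrays of the same time and experiment in 25 (67.6%), beside 14.7% of all tested genes. Both U0126 arrays stood above both FGF arrays at each of the 3 times in 19 of the 37 (51.4%), beside 8.29% of all tested genes.

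**Figure D1:**
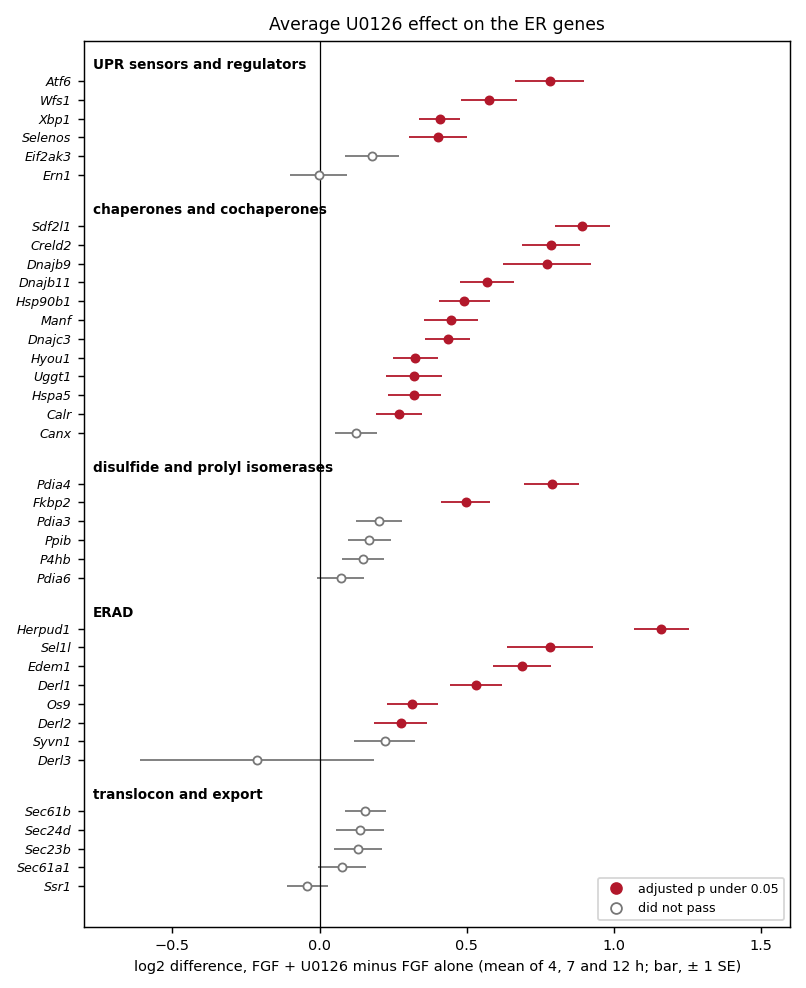
Average log2 difference between cells with FGF plus U0126 from the start and cells with FGF alone, over 4, 7 and 12 h, for each of the 37 ER genes grouped by role; the bar is 1 SE of the fit and filled points passed an adjusted p of 0.05. The 23 filled points lie between 0.27 (Calr) and 1.16 (Herpud1), all right of 0, and none of the 5 translocon and export genes is filled.

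Among the sensors, Atf6 rose with U0126 by 0.78 ± 0.12 on the log2 scale (1.72-fold, adjusted p = 0.00021, n = 6 arrays in each arm). Without U0126 its signal was 693, 522 and 790.4 in quiescent cells, 509 after 1 h of FGF, 821 and 953 after 4 h, 874 and 1099.5 after 7 h and 573 and 589 after 12 h. With U0126 from the start it was 679.8 at 1 h, 1114 and 1383 at 4 h, 1899 and 1685 at 7 h and 966 and 1436 at 12 h, and in the late additions (at 1 h read at 7 h, at 7 h read at 12 h) it was 1597 and 848. Both inhibited arrays stood above both FGF arrays at each of 4, 7 and 12 h, and the levels at 12 h with FGF alone were within the range of the quiescent arrays.

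Xbp1, which encodes the factor activated by IRE1, rose with U0126 by 0.41 ± 0.07 (1.33-fold, adjusted p = 0.0005). Its signal without U0126 was 14056, 12464 and 12582 in quiescent cells, 14603 after 1 h of FGF, 13255 and 12324 after 4 h, 11442 and 10164 after 7 h and 7733 and 8011 after 12 h. With U0126 from the start it read 15865 at 1 h, 16321 and 15293 at 4 h, 15291 and 13572 at 7 h and 11315 and 10963 at 12 h, and 15877 and 15468 in the late additions. The signal with FGF alone was lower at 12 h than on any quiescent array, while each array with U0126 stood above the FGF arrays of its time.

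Transcripts of the other 2 sensors did not pass the test. Ern1, encoding IRE1, differed by -0.0021 ± 0.10, adjusted p = 0.99. It read 639.9, 637 and 589.5 in quiescent cells, 634 after 1 h of FGF, 958 and 832 after 4 h, 862 and 778 after 7 h and 820.5 and 687 after 12 h. The inhibited arrays read 652 at 1 h, 955 and 725 at 4 h, 875 and 826 at 7 h and 762 and 783 at 12 h, with 909 and 820.5 in the late additions. The arms overlapped at each of 4, 7 and 12 h. Eif2ak3, encoding PERK, differed by 0.18 ± 0.09, adjusted p = 0.21. It read 1423, 1522 and 1856 in quiescent cells, 1285 after 1 h of FGF, 1474 and 1847 after 4 h, 1209 and 1485 after 7 h and 1007 and 979 after 12 h. Under U0126 its signal was 1137 at 1 h, 1816 and 1981 at 4 h, 1409 and 1515 at 7 h and 1149 and 1149 at 12 h, with 1401 and 1705 in the late additions. Its FGF arrays were lowest at 12 h. Of the 2 remaining regulators, Wfs1, a membrane protein of the ER that restrains ATF6, rose by 0.58 ± 0.09, adjusted p = 0.00041, and Selenos, a selenoprotein of the degradation complex, by 0.40 ± 0.10, adjusted p = 0.0082. Wfs1 read 673, 757 and 852 in quiescent cells, 868 after 1 h of FGF, 746 and 927 after 4 h, 870.5 and 1070.4 after 7 h and 751 and 666 after 12 h. With MEK inhibited it was 679 at 1 h, 1156 and 1273 at 4 h, 1568 and 1446 at 7 h and 1052 and 1035 at 12 h, and 1422 and 1013 in the late additions. Each inhibited array at 4, 7 and 12 h exceeded 1000, and 1 of the 6 FGF arrays did.

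Of the chaperones, Hspa5, which encodes BiP, the HSP70 of the ER and the usual marker of the response, rose with U0126 by 0.32 ± 0.09 (1.25-fold, adjusted p = 0.018). Its other probe sets gave 0.53 ± 0.09 and 0.34 ± 0.09 and passed (limma, adjusted p = 0.00076 and 0.02). The reported probe set read 21541, 20234 and 18627 in quiescent cells, 25125 after 1 h of FGF, 22287 and 27909 after 4 h, 27351 and 26897 after 7 h and 17552 and 22696 after 12 h. With U0126 from the start it read 24647 at 1 h, 30324 and 34034 at 4 h, 32170 and 27970.1 at 7 h and 25642 and 29117 at 12 h, and 38053 and 31901 in the late additions. The inhibited arrays stood above the FGF arrays of the same time in all 6 pairs, but arrays of different experiments came close. At 4 h experiment 2 without U0126 read 27909 and experiment 1 with it 30324. At 7 h experiment 1 without U0126 read 27351 and experiment 2 with it 27970.1. The call was lost when FGF 4 h replicate 1, FGF plus U0126 4 h replicate 2, FGF plus U0126 7 h replicate 1, FGF 12 h replicate 1 or FGF plus U0126 12 h replicate 2 was left out (adjusted p from 0.051 to 0.06).

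Larger differences were found for other genes listed with the chaperones. Sdf2l1, a component of the BiP chaperone cycle, rose by 0.89 ± 0.09 (1.86-fold, adjusted p = 6.2e-06). It read 1404, 1722 and 1717 in quiescent cells, 1525 after 1 h of FGF, 2635 and 2766 after 4 h, 3449 and 3094 after 7 h and 2764 and 3025 after 12 h. With the inhibitor it read 1637 at 1 h, 6274 and 5215 at 4 h, 8119 and 7179.9 at 7 h and 4487 and 3156 at 12 h, with 7846 and 8109 in the late additions. Quiescent and 1 h arrays were alike at 1404 to 1722, and the log2 difference between the arms was largest at 7 h. Creld2, a secreted factor of the ER lumen induced by ER stress, rose by 0.79 ± 0.10 (adjusted p = 3.6e-05). Its signal was 1664, 1931 and 2013 in quiescent cells, 1564 after 1 h of FGF, 2515 and 3336 after 4 h, 4091 and 3504 after 7 h and 2377 and 2596 after 12 h. In the inhibited arm it was 1927 at 1 h, 4907 and 4924 at 4 h, 9305 and 6574 at 7 h and 3638 and 3663 at 12 h, with 7965 and 5476 in the late additions. Like Sdf2l1, it had its highest signal at 7 h under U0126.

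The 3 J-domain cochaperones of BiP on the list rose as well. Dnajb9 rose by 0.77 ± 0.15 (adjusted p = 0.0014). It read 2171, 1561 and 1515 in quiescent cells, 2084 after 1 h of FGF, 2912 and 2195 after 4 h, 2534 and 1441 after 7 h and 1466 and 1189.5 after 12 h. The arm with U0126 read 1531 at 1 h, 6468 and 4315 at 4 h, 4982 and 3563 at 7 h and 1463 and 1422 at 12 h, with 5098 and 3600.4 in the late additions. Its arms stood apart at 4 and 7 h and overlapped at 12 h. Dnajb11, which also carries an ERSE-II, rose by 0.57 ± 0.09 (adjusted p = 0.00038). It read 1704, 1927 and 1652 in quiescent cells, 1802 after 1 h of FGF, 2031 and 1989 after 4 h, 2577 and 2179 after 7 h and 2155 and 1999 after 12 h. The inhibited arrays read 1684 at 1 h, 2547 and 2706 at 4 h, 4567 and 3248 at 7 h and 3488 and 2961 at 12 h, with 4115 and 3172 in the late additions. Its arms did not overlap at 4, 7 or 12 h. Dnajc3, known as p58IPK, rose by 0.44 ± 0.08, adjusted p = 0.00074.

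The nucleotide exchange factor Hyou1 rose by 0.33 ± 0.07 (adjusted p = 0.0053). It read 1688, 1632 and 1527 in quiescent cells, 1616 after 1 h of FGF, 1949.9 and 1735 after 4 h, 2449 and 2557 after 7 h and 2792 and 2889 after 12 h. Under U0126 its signal was 1806 at 1 h, 2463 and 2177 at 4 h, 3126 and 2965 at 7 h and 3959 and 3394 at 12 h, with 3537 and 3707 in the late additions. Its group mean was higher at each later time from 4 to 12 h in both arms. Hsp90b1, the HSP90 of the ER, rose by 0.49 ± 0.09, adjusted p = 0.0007, and Manf, a secreted factor kept in the ER by BiP, by 0.45 ± 0.09, adjusted p = 0.0022. In the lectin cycle that folds glycoproteins, calreticulin (Calr) rose by 0.27 ± 0.08, adjusted p = 0.022 and the folding sensor Uggt1 by 0.32 ± 0.09, adjusted p = 0.024, while calnexin (Canx) differed by 0.12 ± 0.07, adjusted p = 0.26. The calls of Calr and Uggt1 were lost without single arrays: Calr without FGF 4 h replicate 1, FGF 7 h replicate 1, FGF plus U0126 7 h replicate 1, FGF 12 h replicate 1 or FGF plus U0126 12 h replicate 2 (adjusted p from 0.055 to 0.074), and Uggt1 without FGF 4 h replicate 1, FGF plus U0126 4 h replicate 2, FGF 7 h replicate 1, FGF plus U0126 7 h replicate 2, FGF 12 h replicate 1 or FGF plus U0126 12 h replicate 2 (0.051 to 0.07). Of the other Uggt1 probe sets, 1 gave 0.13 ± 0.15 and did not pass, and 1 was near background (median signal 12.8) and gave no usable difference. Both other Calr probe sets passed, at 0.37 ± 0.08 and 0.42 ± 0.07.

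Among the isomerases 2 of 6 were called. Pdia4, a protein disulfide isomerase of the BiP complex, rose by 0.79 ± 0.09 (1.73-fold, adjusted p = 2e-05). It read 1357, 1730 and 1524 in quiescent cells, 1590 after 1 h of FGF, 1688 and 1751 after 4 h, 2128 and 1599.5 after 7 h and 1786 and 1529 after 12 h. With MEK inhibited it was 1482 at 1 h, 2654 and 2159 at 4 h, 3038 and 3036 at 7 h and 4164 and 3392 at 12 h, with 3002 and 3886 in the late additions. The FGF arrays stayed near the quiescent level while the inhibited arrays were highest at 12 h. Fkbp2, a prolyl isomerase of the ER lumen, rose by 0.50 ± 0.08 (adjusted p = 0.0005). It read 3101, 3069.9 and 3167 in quiescent cells, 3212 after 1 h of FGF, 2697 and 3412 after 4 h, 3000.3 and 3066 after 7 h and 2659 and 3268 after 12 h. With the inhibitor it read 3074 at 1 h, 3342 and 3899 at 4 h, 4655 and 4423 at 7 h and 4498 and 4839.8 at 12 h, with 4216 and 2912 in the late additions. Its level after late addition at 7 h lay between the FGF arrays of 12 h. Pdia3, Pdia6, P4hb and Ppib had differences of 0.20, 0.07, 0.15 and 0.17 and were not called; Pdia3 had an adjusted p of 0.084, and 0.033 with the experiment as a block.

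ERAD held the largest difference of the list. Herpud1, the membrane scaffold of the HRD1 ubiquitin ligase complex and a known target of both ATF6 and ATF4, rose with U0126 by 1.16 ± 0.09 (2.24-fold, adjusted p = 4.6e-07). Without U0126 it read 4476, 5757 and 4553 in quiescent cells, 4854 after 1 h of FGF, 6881 and 6963 after 4 h, 4225 and 3781 after 7 h and 2932 and 2431 after 12 h. With U0126 from the start it read 6049.5 at 1 h, 18139.5 and 16121 at 4 h, 13610.2 and 9443 at 7 h and 4484 and 4096 at 12 h, and 13835 and 14951 in the late additions. The arms did not overlap at 4, 7 or 12 h, and both arms were lower at 12 h than at 4 h.

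Edem1, which acts on glycoproteins bound for degradation, rose by 0.69 ± 0.10 (adjusted p = 0.00012). It read 1549.8, 1673 and 2153 in quiescent cells, 1666 after 1 h of FGF, 1888 and 2405 after 4 h, 1995 and 2144 after 7 h and 1660.2 and 1835 after 12 h. In the inhibited arm it was 1520 at 1 h, 3333 and 3503 at 4 h, 4476 and 3884 at 7 h and 2023 and 2556 at 12 h, with 3664 and 3576 in the late additions. Its FGF arrays stayed between 1660.2 and 2405, near the quiescent range. Sel1l, the adaptor of HRD1, rose by 0.78 ± 0.15 (adjusted p = 0.0012). It read 2187, 1882 and 2621 in quiescent cells, 1819 after 1 h of FGF, 1911 and 2893 after 4 h, 2245 and 2699 after 7 h and 1525 and 1766 after 12 h. The arm with U0126 read 2053 at 1 h, 2724 and 4435 at 4 h, 4769 and 5194 at 7 h and 2248 and 3548 at 12 h, with 4467 and 2909.9 in the late additions. At 4 h the arms of Sel1l overlapped across experiments, and within each experiment the inhibited array was higher.

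Derl1, a channel protein of retrotranslocation, rose by 0.53 ± 0.09 (adjusted p = 0.00045). It read 13089, 9326 and 10332 in quiescent cells, 13766 after 1 h of FGF, 9316 and 10578 after 4 h, 10956 and 10004 after 7 h and 6483 and 8215 after 12 h. The inhibited arrays read 13229 at 1 h, 15375 and 14112 at 4 h, 16475 and 12674 at 7 h and 10249 and 11289.8 at 12 h, with 18527 and 13361 in the late additions. The arms did not overlap at 4, 7 or 12 h. Syvn1, which encodes the ligase HRD1 itself, did not pass, with 0.22 ± 0.10, adjusted p = 0.16. It read 1533, 1689.8 and 1789.9 in quiescent cells, 1833 after 1 h of FGF, 2084 and 2271 after 4 h, 1466 and 1909 after 7 h and 1242 and 1002 after 12 h. Under U0126 its signal was 1622 at 1 h, 2671 and 2162 at 4 h, 2407 and 2045 at 7 h and 1377 and 1068 at 12 h, with 2548 and 2859.5 in the late additions. Its arms overlapped at 4 and 12 h, and the array with U0126 added at 7 h carried its highest signal of all 19. Os9, a lectin of the complex, rose by 0.32 ± 0.09, adjusted p = 0.016, a call lost without FGF plus U0126 4 h replicate 1 or 7 h replicate 2 (0.052 and 0.056), and Derl2 by 0.28 ± 0.09, adjusted p = 0.041, a call lost without any of 7 arrays (FGF 4 h replicate 1, FGF plus U0126 4 h replicate 1, both FGF 12 h replicates, FGF 7 h replicate 2, and replicate 1 of FGF plus U0126 at 7 and 12 h; 0.078 to 0.13). The other probe set of Os9 passed at 0.52 ± 0.09, and that of Derl2 did not, at 0.14 ± 0.08. Derl3 was near background, with signals of 12.2 to 101 and a median of 26, and gave no usable difference.

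None of the translocon and export genes passed: the differences were 0.08 for Sec61a1 and 0.16 for Sec61b, subunits of the channel that takes nascent chains into the ER, -0.04 for Ssr1, a translocon-associated protein, and 0.14 for Sec24d and 0.13 for Sec23b, coat proteins of COPII export vesicles. Sec23b read 2019, 2431 and 2400.2 in quiescent cells, 2374 after 1 h of FGF, 3606 and 4291 after 4 h, 3690.3 and 3718 after 7 h and 3025 and 3490.5 after 12 h. With MEK inhibited it was 2135 at 1 h, 4377 and 5247 at 4 h, 4813 and 4086 at 7 h and 3007 and 2861 at 12 h, with 5175 and 4337 in the late additions. All 4 arrays at 4 h, with and without U0126, were above every quiescent array.

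**Figure D2:**
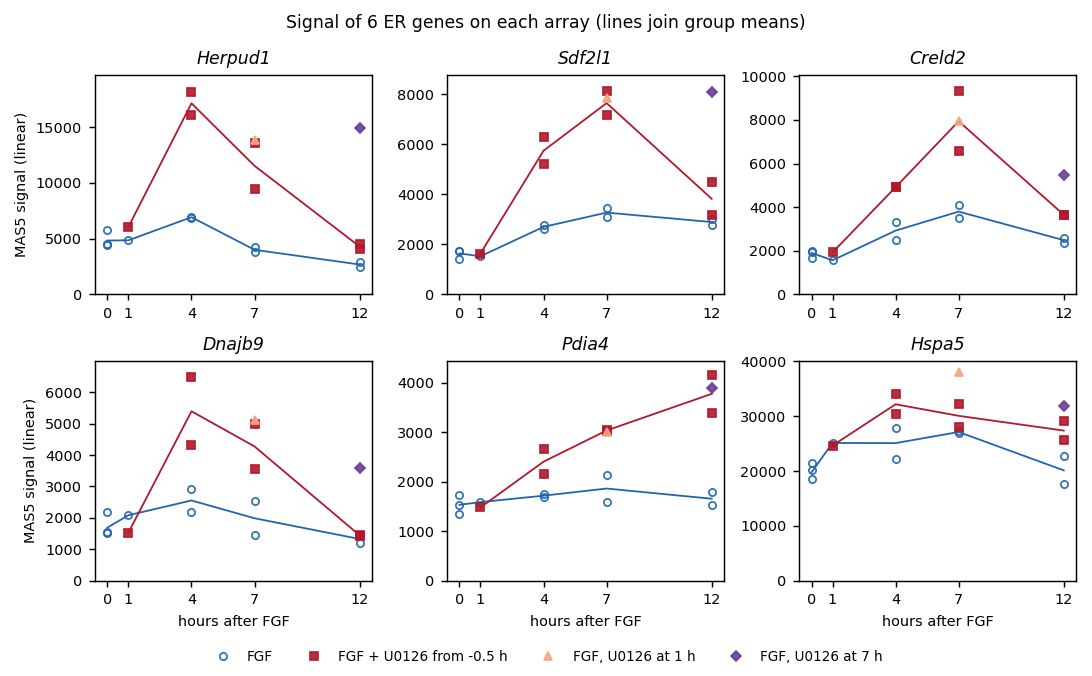
MAS5 signal (linear, arbitrary units) against hours of FGF, 1 panel for each of 6 ER genes; each point is 1 array, colours and shapes mark the arm, and lines join group means. In Herpud1 the 2 inhibited arrays at 4 h stand at 16121 and 18139.5 against 6881 and 6963 with FGF alone, and the array with U0126 added at 7 h stands at 14951 at 12 h.

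Taken time by time, U0126 from the start raised 6 of the 37 genes at 4 h, 13 at 7 h and 11 at 12 h, and lowered 0 at each, against 3.2%, 3.03% and 6.26% of all tested genes called higher and 2.73%, 3.04% and 5.79% called lower. The 3 comparisons share no arrays. Creld2 and Herpud1 were called at all 3 times, 16 genes at one or more, and 7 (Calr, Derl2, Hspa5, Hyou1, Manf, Selenos and Uggt1) in the average alone. With the experiment as a block the counts were 13, 17 and 15, where 13%, 12.5% and 20.6% of all genes were called in either direction. Counts depended on single arrays: the count at 4 h was 3 without FGF replicate 1 or without either U0126 replicate, that at 7 h was 6 without FGF replicate 2, 4 without U0126 replicate 1 and 8 without U0126 replicate 2, and that at 12 h was 3 and 6 without FGF replicate 1 and 2, and 4 without either U0126 replicate.

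At 4 h Herpud1 (1.30 ± 0.16) and Sdf2l1 (1.08 ± 0.16) kept their calls whichever array was left out, with adjusted p = 0.00016 and 0.00078 on all arrays. At 7 h so did Herpud1 (1.50 ± 0.16), Sdf2l1 (1.22 ± 0.16), Creld2 (1.04 ± 0.17) and Edem1 (1.01 ± 0.17), with adjusted p from 4.4e-05 to 0.0019. At 12 h only Pdia4 did (1.18 ± 0.16, adjusted p = 0.00017). Atf6 stood at 1.00 ± 0.21 at 12 h, a call lost without U0126 replicate 2 (adjusted p = 0.079).

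An F test in limma asked whether the size of the U0126 difference depended on the hour (4, 7 or 12): 0 of 37 genes passed, against 1.03% of all genes. An unadjusted p under 0.05 was found for 5 of 37, beside 1296 of all 14996 genes. With the experiment as a block 3 passed: Dnajb9 (adjusted p = 0.0066), Herpud1 (0.013) and Sdf2l1 (0.028), against 3.83% of all genes. In these 3 the difference at 12 h was smaller than at 4 and 7 h: 1.06, 1.13 and 0.13 for Dnajb9, 1.30, 1.50 and 0.68 for Herpud1, and 1.08, 1.22 and 0.38 for Sdf2l1. At 1 h, where each arm had 1 array and borrowed the spread of the others, 0 of 37 genes were called (0.18% of all genes).

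The FGF time course without inhibitor asks how the ER program moves as cells leave quiescence. Against quiescent cells 0 of 37 genes were called at 1 h (0.48% of all genes). At 4 h 4 were higher and 0 lower (3.92% and 4.98% of all genes), and at 7 h 9 were higher and 0 lower (5.45% and 7.2%). At 12 h 5 were higher and 6 lower (8.55% and 11.8%), so calls went both ways in the list, as they did over all genes. These comparisons share the quiescent arrays. The median log2 difference of the list was 0.19 at 4 h, 0.24 at 7 h and 0.02 at 12 h, beside -0.09, -0.05 and -0.01 over all genes. With the experiment as a block the counts called were 10, 15 (14 higher, 1 lower) and 13 (6 higher, 7 lower), where 17.7%, 21.6% and 30% of all genes were called in that fit. Left-out arrays moved them too: 4 h gave 2 without quiescent replicate 2 and 0 without FGF replicate 2, 7 h gave 5 without quiescent replicate 2, and 12 h gave 4 without quiescent replicate 2, 7 without FGF replicate 1 and 6 without FGF replicate 2.

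The genes called at 4 h were 3 of 12 chaperones and 1 of 5 translocon and export genes. Sdf2l1, Creld2, Manf and Sec23b were called at 4 h (0.72, 0.61, 0.68 and 0.77 on the log2 scale, SE 0.14 to 0.17) and again at 7 h (0.99 ± 0.16, 0.99 ± 0.17, 0.85 ± 0.16 and 0.68 ± 0.14). The 7 h calls of these 4 held with any array left out (adjusted p = 0.001, 0.0015, 0.0025 and 0.0054 on all arrays). Each 4 h call was lost without FGF 4 h replicate 2 (adjusted p 0.058 to 0.33); that of Sdf2l1 was also lost without replicate 1 (0.051), those of Creld2 and Manf without quiescent replicate 2 (0.1 and 0.11), and that of Creld2 without quiescent replicate 1a (0.053). At 7 h Dnajc3 (0.72 ± 0.13, adjusted p = 0.0024) and Hyou1 (0.65 ± 0.13, adjusted p = 0.0042) were higher as well; the call of Hyou1 was lost without quiescent replicate 2 (0.052). Pdia6, Sec61a1 and Ssr1 were called at 7 h at 0.45, 0.54 and 0.48, and each lost the call without quiescent replicate 2 or FGF 7 h replicate 2 (0.062 to 0.27); Pdia6 also lost it without FGF 7 h replicate 1 (0.24) or quiescent replicate 1a (0.066), and Sec61a1 without FGF 7 h replicate 1 (0.1). BiP itself differed by 0.46 ± 0.16 at 7 h (adjusted p = 0.07, and 0.023 with the block).

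At 12 h, 5 genes were called above the quiescent level and 6 below it, beside 8.55% and 11.8% of all genes. Calls among the translocon and export genes went both ways, and no test compared the roles. Herpud1 fell by 0.85 ± 0.16 (adjusted p = 0.0018) and Xbp1 fell by 0.71 ± 0.12 (adjusted p = 0.0006). Hyou1 rose by 0.83 ± 0.13 (adjusted p = 0.00037) and Sdf2l1 rose by 0.82 ± 0.16 (adjusted p = 0.0022). These 4 calls held under each of 15 alternatives tried, left-out arrays included. Eif2ak3 fell by 0.73 ± 0.16 (adjusted p = 0.0044), Syvn1 by 0.60 ± 0.18 (0.028), Derl1 by 0.55 ± 0.15 (0.019) and Sec24d by 0.44 ± 0.14 (0.038), and Sec23b rose by 0.49 ± 0.14 (0.023), Ssr1 by 0.41 ± 0.12 (0.026) and Pdia6 by 0.41 ± 0.14 (0.048). Each of these 7 calls was lost without quiescent replicate 2 (adjusted p 0.063 to 0.25). They were also lost without FGF 12 h replicate 1 for Derl1, Sec24d, Ssr1 and Pdia6 (0.09 to 0.19), without FGF 12 h replicate 2 for Syvn1, Sec24d, Sec23b, Ssr1 and Pdia6 (0.1 to 0.22), without quiescent replicate 1a for Derl1 and Pdia6 (0.063 and 0.072), and without quiescent replicate 1b for Sec24d (0.053). Scaling on the 75th percentile instead gave 4 higher and 4 lower. Both other Eif2ak3 probe sets were near background (median signals 16.8 and 26.6) and gave no usable difference.

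Set directly against 4 h of FGF, a comparison with no quiescent array in it, 12 h gave 1 gene higher and 6 lower (3.65% and 2.9% of all genes). Herpud1 fell by 1.37 ± 0.16 (adjusted p = 0.00011) and Xbp1 by 0.70 ± 0.12 (0.0019), whichever array was left out. Syvn1 fell by 0.95 ± 0.18 (0.004), Dnajb9 by 0.93 ± 0.26 (0.044), Eif2ak3 by 0.73 ± 0.16 (0.012) and Sec24d by 0.54 ± 0.14 (0.03), and Hyou1 rose by 0.62 ± 0.13 (0.0082). Without FGF 4 h replicate 2 or FGF 12 h replicate 2 each of these 5 lost its call (adjusted p 0.053 to 0.26), as did Hyou1, Eif2ak3, Dnajb9 and Sec24d without FGF 12 h replicate 1 (0.053 to 0.12), and Dnajb9 and Sec24d without FGF 4 h replicate 1 (0.26 and 0.14). The count was 2 without FGF 4 h or 12 h replicate 2, 3 without FGF 12 h replicate 1, and 11 with the experiment as a block (14.1% of all genes).

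**Figure D3:**
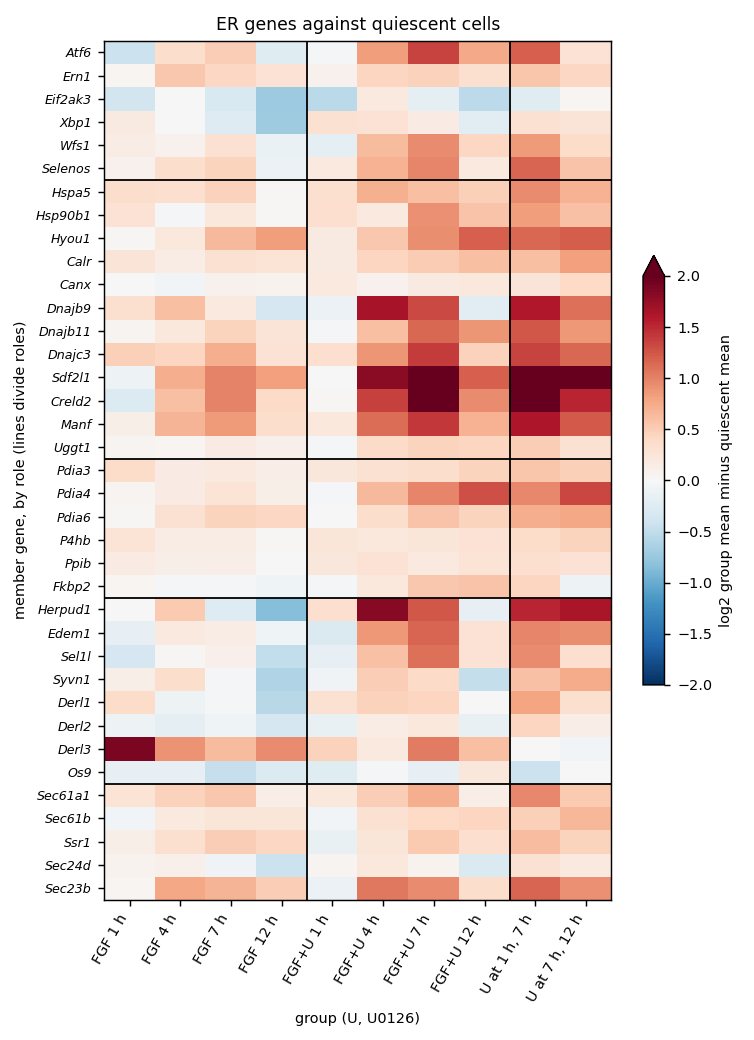
Log2 difference from quiescent cells for each of the 37 genes (rows, by role) in the FGF and FGF plus U0126 groups at 1, 4, 7 and 12 h and in both late additions (columns); red is higher and blue lower than quiescent, and the colour scale ends at 2. Sdf2l1 and Creld2 lie past the end of the scale at 7 h with U0126 (2.21 and 2.03), and Herpud1 and Xbp1 are blue at 12 h of FGF alone (-0.85 and -0.71).

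Against quiescent cells, FGF with MEK inhibited from the start left 16 of 37 genes higher at 4 h, 22 at 7 h and 10 at 12 h, with 0 lower (3.31%, 3.73% and 2.43% of all genes were called higher and 4.07%, 5.33% and 2.99% lower). These comparisons share the quiescent arrays with those of FGF alone, so the values are given side by side. At 7 h Sdf2l1 was 2.21 ± 0.16 above quiescent cells (4.64-fold, adjusted p = 4.2e-06) beside 0.99 with FGF alone. Creld2 was 2.03 ± 0.17 above (9.5e-06) beside 0.99, Manf 1.41 ± 0.16 (6.5e-05) beside 0.85, Dnajc3 1.40 ± 0.13 (2.1e-05) beside 0.72, and Atf6 1.36 ± 0.21 (0.00072) beside 0.50. Herpud1 was highest at 4 h, 1.83 ± 0.16 above quiescent cells (1.2e-05), and at 12 h it stood at -0.17 ± 0.16 (0.68) and did not pass. For Dnajb9 the values were 1.65 ± 0.26 at 4 h (0.0011) and -0.21 ± 0.26 at 12 h (0.75). Hyou1 and Pdia4 were at their highest at 12 h, with 1.20 ± 0.13 (9.3e-05) and 1.29 ± 0.16 (0.00026).

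Sec23b, whose U0126 difference did not pass, was 1.05 ± 0.14 above quiescent cells at 4 h with the inhibitor (0.00036, adjusted) and 0.77 ± 0.14 without it. The counts were 9 at 4 h without quiescent replicate 2 and 10 without U0126 replicate 2, 13 at 7 h without U0126 replicate 1, and at 12 h 4 without quiescent replicate 2, 6 without U0126 replicate 1 and 5 without U0126 replicate 2. With the experiment as a block the count at 12 h was 19 (17 higher, with Eif2ak3 and Syvn1 lower), where 14.4% of all genes were called.

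The late additions ask whether these transcripts differ when U0126 is given after FGF has acted for some hours. U0126 given at 1 h raised 10 of the 37 genes at 7 h and lowered 0 (1.68% of all genes were called higher and 1.91% lower), and U0126 given at 7 h raised 13 at 12 h and lowered 0 (2.47% and 2.58%). Each rests on 1 inhibited array, taken to vary like the other groups. Sdf2l1 and Herpud1 rose by 1.26 ± 0.20 and 1.79 ± 0.20 after addition at 1 h (adjusted p = 0.0018 and 0.00012), and Herpud1 rose by 2.48 ± 0.20 after addition at 7 h (5.58-fold, adjusted p = 7.9e-06), the largest of the list in any U0126 comparison. Addition at 7 h also raised Sdf2l1 (1.48 ± 0.20, adjusted p = 0.00049), Syvn1 (1.35 ± 0.22, adjusted p = 0.0023), Pdia4 (1.23 ± 0.20, adjusted p = 0.0021), Creld2 (1.14 ± 0.21, adjusted p = 0.005) and Xbp1 (0.97 ± 0.15, adjusted p = 0.0011). The calls named in this paragraph held with any array of the FGF group left out. The count after addition at 1 h was 2 without FGF 7 h replicate 2 and 19 with the block (7.49% of all genes); after addition at 7 h it was 8 without FGF 12 h replicate 1 and 22 with the block (11.3%).

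Late and early inhibition were then compared at the same hour, a comparison added after the values were seen. At 7 h, 0 of 37 genes were called between addition at 1 h and addition before FGF (0% of all genes), and the differences ran from -1.04 (Derl3, near background) to 0.36. At 12 h, 3 genes were higher after addition at 7 h than after addition before FGF and 0 were lower (0.56% and 0.113% of all genes): Herpud1 by 1.80 ± 0.20 (adjusted p = 0.00046), Sdf2l1 by 1.10 ± 0.20 (0.016) and Syvn1 by 1.23 ± 0.22 (0.016). The lone late array read 14951 for Herpud1 against 4484 and 4096, 8109 for Sdf2l1 against 4487 and 3156, and 2859.5 for Syvn1 against 1377 and 1068. Without FGF plus U0126 12 h replicate 2 the count was 1. With the block 9 genes differed (2.25% of all genes), 8 higher (the 3 above with Dnajb9, Dnajc3, Edem1, Eif2ak3 and Sec23b) and Fkbp2 lower.

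**Figure D4:**
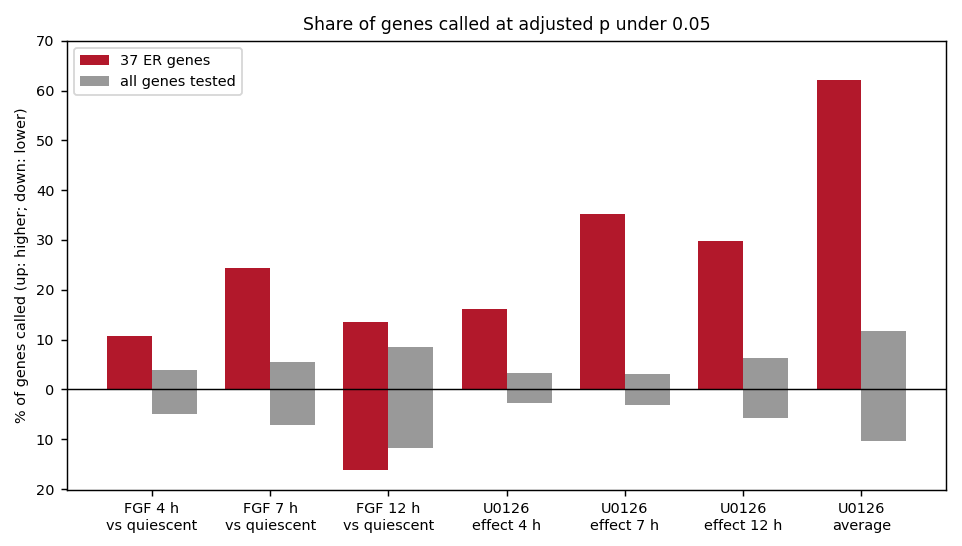
Percent of the 37 ER genes (red bars) and of all 14996 tested genes (grey bars) called higher, above 0, or lower, below 0, for FGF against quiescent cells and for U0126 at 4, 7 and 12 h and on average. The share higher is 62.2% in the average U0126 effect, where 11.7% of all genes are called higher.

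Beside the listed genes, further genes of the same pathways were taken from textbook lists; in this comparison 11.7% of all tested genes were called higher and 10.3% lower. Of 12 regulators, 11 were tested and 5 rose with U0126 in the average while 0 fell. Ddit3, which encodes CHOP, rose by 2.96 ± 0.11 (adjusted p = 2.4e-10), more than any listed ER gene, and read 1000 and 1047 with FGF and 10538 and 8114 with U0126 at 4 h. Trib3, a pseudokinase induced with CHOP, rose by 2.70 ± 0.15 (1.6e-08), Ppp1r15a, the GADD34 subunit that reverses eIF2 alpha phosphorylation, by 1.46 ± 0.12 (4.4e-07), and Atf4 by 0.63 ± 0.08 (2.7e-05). With FGF alone at 12 h, Ddit3 fell by 1.65 ± 0.19 (2.5e-05) and Ppp1r15a by 1.05 ± 0.20 (0.0019) against quiescent cells, while Atf4 was at 0.14 ± 0.13 (0.55). At 1 h, with 1 array in each arm, Ddit3 read 2367 with FGF and 6429.8 with U0126, a rise of 1.44 ± 0.26 (adjusted p = 0.046).

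Of 23 other ER folding factors tested, 7 rose with U0126 and 1 fell. The largest was Ero1a, the oxidase that recharges disulfide isomerases, at 1.31 ± 0.16 (adjusted p = 2.9e-05); it read 3505 and 3960.3 with FGF and 9460.3 and 12281 with U0126 at 7 h. Cnpy2 rose by 0.87 ± 0.14 (0.00037), though 1 of its other 3 probe sets gave -0.035 ± 0.19, and Sil1, an exchange factor of BiP, by 0.58 ± 0.12 (0.0028). Of 15 other ERAD factors 4 rose and 0 fell, with Edem2 at 0.77 ± 0.08 (6.1e-06) and Herpud2 at 0.56 ± 0.10 (0.00059). Of 21 other translocon, signal peptidase and oligosaccharyltransferase genes 4 rose and 0 fell, led by Sec11c at 0.56 ± 0.12 (0.0025), and of 15 other export and retrieval genes 4 rose and 1 fell, led by Kdelr1 at 0.37 ± 0.09 (0.0074). Median differences were 0.10, 0.20, 0.07 and 0.00057 in these 4 lists, beside 0.32 in the 37 genes and 0.01 over all genes.

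Other probe sets of the same genes were compared too. Of the 23 genes called in the average U0126 effect 15 had further probe sets, and 30 of these 31 were above 0 and 26 of 31 were called. The 5 not called were 1 each of Xbp1, Hyou1 and Derl2 and 2 of Uggt1. Of the 11 genes called at 12 h of FGF 8 had further probe sets, of which 15 of 16 had the sign of the reported one and 8 of 16 also passed. Derl1, reported at -0.55, gave -0.12 and -0.19, which did not pass, and -0.84, which did. Ssr1, reported at 0.41, gave 0.60, which passed, and 0.03 and 0.32, which did not.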

How the data were processed

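RNA from NIH3T3 cells was hybridised to 19 Affymetrix mouse arrays, each with 1 sample. The values are the MAS5 signal the authors deposited, an intensity on a linear scale; in the files its mean without the top and bottom 2% of values is 500 on every array. MAS5 is named in the submitters' processing notes, while its version and detection calls are not given in the sources used here. The array held 45101 probe sets: 34945 paired with 1 gene symbol, 932 with several, 9160 with none, and 64 were controls. Log2 values were formed from signal plus 13.6 (the 20th percentile over all arrays), so fold changes of dim genes are understated. A probe set was kept where it exceeded its array's 40th percentile on 2 or more arrays, and the kept probe set of highest mean stood for its gene, which gave 14996 genes. Signals of different genes are not comparable, since probes differ in affinity.

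One limma fit (version 3.58.1, R 4.3.3, variance trend, 7 residual and 7.47 prior degrees of freedom) held the 11 groups, and errors of log2 differences are its standard errors. Tests were two-sided, with Benjamini-Hochberg adjustment over all genes of a comparison and 0.05 as the limit. Precision is limited by how few arrays each group has. The labels number the experiments, and differences between experiments 1 and 2 correlated across genes between groups with r of 0.13 to 0.31 in 21 pairs of groups (median 0.21). Same-numbered samples were therefore taken as paired in the pair counts and in a second fit with the experiment as a block. The fit reported has no block, so its errors and p-values leave this pairing out. Counts with the experiment as a block are given where they changed by over 1.5 times, among others. The block ended no call of a listed gene. It added calls, and only some of the genes that gained one are named. Across genes, both replicates of a group correlated with r of 0.969 to 0.979.

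The 37 genes, their roles, the other lists and the comparisons were chosen with earlier results of these data known, and both comparisons of late with early U0126 were added after the values were seen. Per-sample signals are given for 7 fixed genes (Hspa5, Xbp1, Atf6, Ern1, Eif2ak3, Dnajb9 and Herpud1) and for the 12 others with the largest difference among those called for the average U0126 effect or for FGF at 12 h. Other lists name up to 4 called genes of largest change, with Atf4, Ddit3 and Ero1a. Of the pathway lists, Eif2s1, Fkbp10, Mesd and Sec61g were not tested here, and 1 listed gene is not reported. The alternatives changed the normalization (quantile, or a common 75th percentile), the offset (1 or 45.2), the filter (none), the variance trend (none), the quiescent arrays (3 kept apart), the probe set (highest variance), the block, the groups fitted (only those compared) and the arrays (each left out). The workflow was tested on simulated data. Promoter sequences are from RefSeq (GRCm38.p6). Figures were drawn with matplotlib 3.10.9.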

Additional observations from a re-analysis of the deposited data

Results flagged for a closer look

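The difference from quiescent cells changed between 4 and 12 h of FGF in 7 of the ER genes, by the test of FGF 12 h against FGF 4 h (limma, adjusted p under 0.05). In this comparison 3.65% of all tested genes were called higher and 2.9% lower. The following were lower at 12 h than at 4 h: Herpud1 by -1.37, Syvn1 by -0.95, Dnajb9 by -0.93, Eif2ak3 by -0.73, Xbp1 by -0.70 and Sec24d by -0.54 on the log2 scale. Hyou1 was higher, by 0.62. Only the calls of Herpud1 and Xbp1 held whichever array was left out, and the other calls depended on single arrays. Groups held at most 3 arrays, so no single array could be set apart from its group.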

How the results depend on the processing

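Of 255 recomputed counts of called ER genes, 197 stayed within 1.5 times the reported count and 58 did not. The average U0126 effect had 19 to 24 genes called, and 18 of its 23 genes kept call and direction in all 22 alternatives. Without a variance trend the counts were 1, 5 and 4 for FGF 4 h, FGF 12 h and FGF 12 h against 4 h, 2, 5 and 4 for U0126 at 4, 7 and 12 h, 8 and 5 for FGF plus U0126 at 4 and 12 h, 2 and 7 for U0126 added at 1 and 7 h, and 1 for late against early U0126 at 12 h. With the replicate block, which ended no call, they were 10 and 15 for FGF 4 and 7 h, 11 for FGF 12 h against 4 h, 13 for U0126 at 4 h, 3 for U0126 by time, 19 for FGF plus U0126 at 12 h, 19 and 22 for U0126 added at 1 and 7 h, and 9 for late against early U0126. With the probe set of highest variance they were 4 and 7 for FGF 7 and 12 h, 4 for FGF 12 h against 4 h, 6 for U0126 at 12 h and 5 for U0126 added at 1 h. Quantile normalization gave 8 for FGF 4 h, 75th percentile scaling 7 for U0126 at 12 h, no filter 6 for U0126 added at 1 h, and only the compared groups 7 for U0126 at 7 h and 10 for FGF plus U0126 at 4 h. Shares of all genes called with the block are given above with each comparison. For the other settings and for the left-out arrays no such share is given. There a shift in the count of ER genes cannot be told from a shift over all genes. The cause of these shifts was not tested.

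Leaving out 1 array at a time gave 0 to 5, 5 to 9 and 4 to 10 genes for FGF 4, 7 and 12 h, 2 to 5 for FGF 12 h against 4 h, 3 to 4, 4 to 10 and 3 to 6 for U0126 at 4, 7 and 12 h, and 19 to 23 for its average. It gave 0 for U0126 by time, 9 to 15, 13 to 23 and 4 to 11 for FGF plus U0126 at 4, 7 and 12 h, 2 to 9 and 8 to 11 for U0126 added at 1 and 7 h, and 1 to 3 for late against early U0126 at 12 h. A group left with 1 array was assumed to vary like the others. With the probe set of highest variance, Eif2ak3 gave 0.79 for FGF 12 h and 0.43 for FGF 12 h against 4 h, and Uggt1 -0.37 for the average U0126 effect, from probe sets near background (median signals 16.8 and 12.8, SE 0.83 for Eif2ak3 at 12 h and 0.43 for Uggt1) that settle no sign. Cnpy2 gave -0.035 for the average U0126 effect from a probe set with a median of 336; the cause was not tested. With 75th percentile scaling the share of higher genes among all calls for FGF 7 h was 51.4% in place of 43.1%, and the ER genes stayed at 9 higher and 0 lower.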
